A study of Homo sapiens with 12 samples.

Results

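The genes described here are 55 genes of mitosis and its spindle checkpoint: the mitotic kinases and cyclins, the kinetochore, the checkpoint, sister chromatid cohesion, condensin, spindle assembly and cytokinesis. They were taken from a list by gene symbol, with kinesins other than the kinetochore motor CENPE left out, and all 55 were found among the 57773 genes counted. The 12 libraries came from T47D, a human breast cancer line that expresses the estrogen receptor. Every group carried an inducible hairpin (shPSMD2) against PSMD2, which encodes part of the 19S cap of the proteasome. Lo19S cells had the hairpin induced with 0.2 µg/ml doxycycline for 3 days and then spent 24 h without doxycycline, whereas in control cells the hairpin was left uninduced. Cells then received 20 nM bortezomib, which blocks the proteasome, or DMSO for 16 h. The 4 groups, each of 3 libraries, were Lo19S cells with bortezomib, control cells with bortezomib, Lo19S cells with DMSO and control cells with DMSO. Doxycycline went only to the Lo19S groups, so an effect of doxycycline itself and that of the hairpin cannot be told apart.

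Cells enter mitosis when the kinase CDK1, bound to a B-type cyclin, becomes active. Chromosomes are then compacted by condensin and attached to the spindle through kinetochores, and the spindle checkpoint holds back the anaphase-promoting complex until every chromosome is attached. That complex sends securin and cyclin B to the proteasome, which allows the sisters to separate and the cell to divide. Most of these genes are transcribed in G2 and M phase, under the MuvB complex with B-MYB and FOXM1, and are repressed by the DREAM complex, which the CDK inhibitor p21 favours. Their messenger RNA is therefore widely read as a sign of how many cells of a culture are cycling.

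Library totals ran from 7376597 to 15003480 counts, and a member had between 33 and 11581 counts in a library. Levels are given as CPM, counts brought to a common library size, after trimmed-mean (TMM) scaling. PSMD2 itself averaged 185 ± 3.34 CPM in Lo19S cells with DMSO and 406 ± 12.8 CPM in control cells with DMSO (SD, n = 3 each), so the knockdown went with its label. The groups differed in the same direction under bortezomib, at 542 ± 3.29 CPM in Lo19S cells and 1516 ± 10.5 CPM in control cells (SD, n = 3 each). All 8 luminal epithelial markers were detected, with a summed level of 3781 to 3941 CPM in Lo19S cells with bortezomib, 3879 to 3960 CPM in control cells with bortezomib, 5255 to 5350 CPM in Lo19S cells with DMSO and 5852 to 5999 CPM in control cells with DMSO. Leukocyte markers summed to at most 2.42 CPM, endothelial markers to at most 0.372 CPM and fibroblast markers to at most 69.7 CPM. One library stood apart: control DMSO replicate 3 differed from the other control DMSO libraries by a chi-square of 3.64 and 3.99 per degree of freedom, and no other replicate pair exceeded 1.90. The labels do not say whether replicates were separate cultures, so each p-value reflects the spread among these libraries alone, which may be technical.

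As a group, the 55 genes took up 0.338%, 0.348% and 0.346% of all counts in Lo19S cells with bortezomib, 0.354%, 0.344% and 0.347% in control cells with bortezomib, 0.801%, 0.805% and 0.807% in Lo19S cells with DMSO, and 1.09%, 1.09% and 1.02% in control cells with DMSO. With DMSO the Lo19S libraries lay below the control libraries without overlap, and with bortezomib the shares of both states overlapped. These shares are of unscaled totals. With bortezomib the TMM factors were 0.922, 0.928 and 0.926 in Lo19S cells and 0.858, 0.855 and 0.857 in control cells. A larger factor lowers a scaled level, so the overlap holds for unscaled totals only and not for the TMM-scaled values below. In bulk RNA, fewer cells in mitosis and less RNA of these genes per cell cannot be told apart. Log2 fold changes below come from a model over all 12 libraries, with the first-named group over the second, and a change was called where its p, adjusted over the 14714 genes tested, was below 0.05. All 55 members passed the filter on low counts. The comparisons share libraries with each other, so their values are given side by side and not as independent findings.

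**Figure D1:**
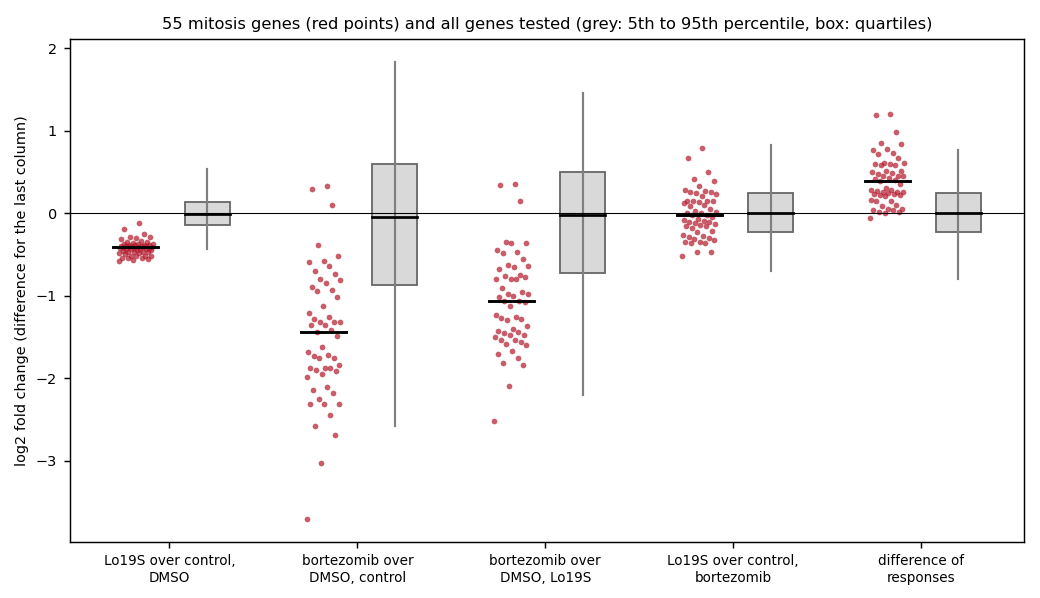
Log2 fold changes of the 55 mitosis genes (red points, black line at their median) beside all 14714 genes tested (grey line from the 5th to the 95th percentile, box at the quartiles) in the 4 comparisons, and the response in Lo19S cells minus that in control cells in the last column. With DMSO the mitosis genes lie in a narrow band around -0.41, with bortezomib they spread from -3.70 to 0.33 in control cells, and under bortezomib the states differ around a median of -0.025.

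Without drug, nearly all of these genes were lower in the Lo19S state, by a small and similar amount. Of the 55, 54 fell in Lo19S cells with DMSO relative to control cells with DMSO and none rose, where 13% of all genes tested were called lower and 24.7% were called in either direction. Their log2 fold changes ran from -0.58 for CENPA, the histone H3 variant that marks centromeres, to -0.11 for SPC24, with a median of -0.41 against -0.0043 over all genes tested. The 6 largest changes were those of CENPA (-0.58, SE 0.092), ANLN (-0.56, SE 0.037), SGO2 (-0.55, SE 0.067), CENPF (-0.54, SE 0.045), NCAPH (-0.54, SE 0.062) and MKI67 (-0.54, SE 0.036), each with an adjusted p of 3.98e-06 or smaller. In 53 of the 55 genes every Lo19S library lay below every control library, against 17.9% of all genes tested. SPC24 was not called (adjusted p = 0.371), and the interval of its change was -0.28 to 0.054. Without control DMSO replicate 3, 53 members were called lower and none higher, and the call of CENPM was lost (adjusted p = 0.0960). CENPM also lost its call with DESeq2 (adjusted p = 0.117), without control DMSO replicate 1 and without each of the 3 Lo19S DMSO libraries (adjusted p of 0.0556 to 0.116), and CENPI without control DMSO replicate 1 (adjusted p = 0.0669).

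With bortezomib the list fell farther and spread more widely. In Lo19S cells 52 of the 55 genes fell and 3 rose with bortezomib, but the drug changed most of the transcriptome: 39.7% of all genes tested were called lower, 37.8% higher and 77.5% in either direction. The members' median was -1.06 against -0.022 over all genes tested. In control cells 52 fell and 3 rose, where 42.2% of all genes tested were called lower, 39.2% higher and 81.4% in either direction. The median there was -1.43 against -0.043 over all genes tested, and the range was -3.70 for PLK1 to 0.33 for CENPN. With libraries scaled by their totals 53 members were called lower and none higher in each state. In each state no member's bortezomib libraries overlapped its DMSO libraries. They lay below in 52 members, against 40.5% of all genes tested in Lo19S cells and 42.1% in control cells, and above in 3, against 38.7% and 39%. CDKN1A, which encodes the CDK inhibitor p21, went the other way, at 179.6 ± 3.90 CPM in Lo19S cells with bortezomib and 22.6 ± 0.508 CPM in Lo19S cells with DMSO (SD, n = 3 each). In control cells it was at 239 ± 6.93 CPM with bortezomib and 22.7 ± 1.06 CPM with DMSO. Its log2 fold change with bortezomib was 2.99 (SE 0.055, adjusted p = 5.42e-41) in Lo19S cells and 3.40 (SE 0.054, adjusted p = 3.24e-44) in control cells. Whether CDKN1A had a part in the fall of the members was not tested. The summed luminal markers, given above, were also lower with bortezomib in both states, but the 8 markers did not move as a set. In each state 5 fell and 3 rose. In control cells ESR1 changed by -3.12 and GATA3 by -2.87, whereas EPCAM changed by 0.96 and KRT18 by 0.82. The 6 fibroblast markers summed to 44.1 to 47.1 CPM in Lo19S cells with bortezomib, where COL1A2 and DCN were at 0, 63.5 to 69.7 CPM in control cells with bortezomib, 33.0 to 33.8 CPM in Lo19S cells with DMSO, where COL1A2 was at 0, and 25.98 to 31.4 CPM in control cells with DMSO. The part of these markers in the results was not tested.

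For 37 of the members the fall with bortezomib was smaller in Lo19S than in control cells. The response over all genes tested was also narrower in Lo19S cells. Its quartiles were -0.72 and 0.50 in Lo19S cells and -0.87 and 0.60 in control cells. The 5th and 95th percentiles were -2.20 and 1.46 in Lo19S cells and -2.57 and 1.83 in control cells. Whether the members differed more than other genes that fell was not tested. The difference of the responses, Lo19S minus control, was positive in 53 of 55 members and was called higher for 37 and lower for none, where 14.4% of all genes tested were called higher, 13.4% lower and 27.8% in either direction. Its median was 0.39 against 0.010 over all genes tested, and the largest values were those of NCAPH (1.21, SE 0.139), PLK1 (1.19, SE 0.117), CDK1 (0.99, SE 0.074), HMMR (0.85, SE 0.093), CCNA2 (0.85, SE 0.082) and CENPF (0.78, SE 0.074), each with an adjusted p of 4.72e-09 or smaller. Of the 18 members not called, the largest differences were those of CENPI (interval 0.0094 to 0.85), CDC25C (-0.031 to 0.59), CENPM (-0.12 to 0.65) and SPC25 (-0.074 to 0.53). Intervals here and below are not adjusted for the number of genes tested. An interval can therefore leave out 0 where the change was not called, as for CENPI. By construction this difference equals the Lo19S change under bortezomib minus the Lo19S change under DMSO, so it takes in the lower DMSO level of Lo19S cells. Without control DMSO replicate 3, 39 members were called higher and none lower, BUB1B and CENPI being the 2 gained. The calls of ESPL1, SPC24 and PTTG1 were lost without control bortezomib replicate 3, that of ESPL1 also without control bortezomib replicate 2, that of PTTG1 without Lo19S bortezomib replicate 1, and those of ESPL1, SPC24 and SMC4 without Lo19S bortezomib replicate 3 (adjusted p of 0.0504 to 0.110).

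With bortezomib the states no longer differed in one direction. Relative to control cells with bortezomib, 14 members were higher, 16 were lower and 25 were not called in Lo19S cells with bortezomib, where 22% of all genes tested were called higher, 21.2% lower and 43.1% in either direction. The median was -0.025 against 0.0044 over all genes tested. Every Lo19S library lay below every control library in 20 members and above in 15, against 26.1% and 26.8% of all genes tested, and the libraries overlapped in 20. The number of members called was the least stable of the 5 comparisons and ran from 25 to 33 when single libraries were left out, with 9 to 14 higher and 15 to 19 lower. The 9 higher, beside 16 lower, were counted without control bortezomib replicate 1. With libraries scaled by their totals, the members' median was 0.086 and 18 members were higher and 13 lower, where the median over all genes moved to 0.11. In at least 1 of the alternative settings the call differed for 19 members, namely the called BUB3, CDC20, CDC25B, DLGAP5, INCENP, NUF2, NUSAP1, PRC1, SPC24 and TTK and the uncalled AURKA, CCNB1, CENPK, ESPL1, NCAPD2, NEK2, PTTG1, SGO1 and SMC4, and for 36 it was the same in all of them. Without control bortezomib replicate 1 the calls of CDC20, CDC25B, TTK, NUF2, DLGAP5 and NUSAP1 were lost (adjusted p of 0.0509 to 0.202), without replicate 2 those of NUF2, INCENP, DLGAP5 and NUSAP1 (0.0505 to 0.134), and without replicate 3 those of SPC24, INCENP and NUSAP1 (0.0526 to 0.165). Without Lo19S bortezomib replicate 1 the call of INCENP was lost (adjusted p = 0.158), without replicate 2 those of CDC25B, TTK, INCENP, DLGAP5 and NUSAP1 (0.0508 to 0.157), and without replicate 3 those of NUF2, SPC24 and NUSAP1 (0.0678 to 0.195). Calls were gained for CCNB1, ESPL1 and SMC4 (lower) without control DMSO replicate 3, for AURKA (higher), for CCNB1 and SGO1 (lower) and for PTTG1 (lower) without control bortezomib replicates 1, 2 and 3 in turn, for PTTG1 without Lo19S bortezomib replicate 1 and for SMC4 without replicate 3 (adjusted p of 0.00196 to 0.0467).

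**Figure D2:**
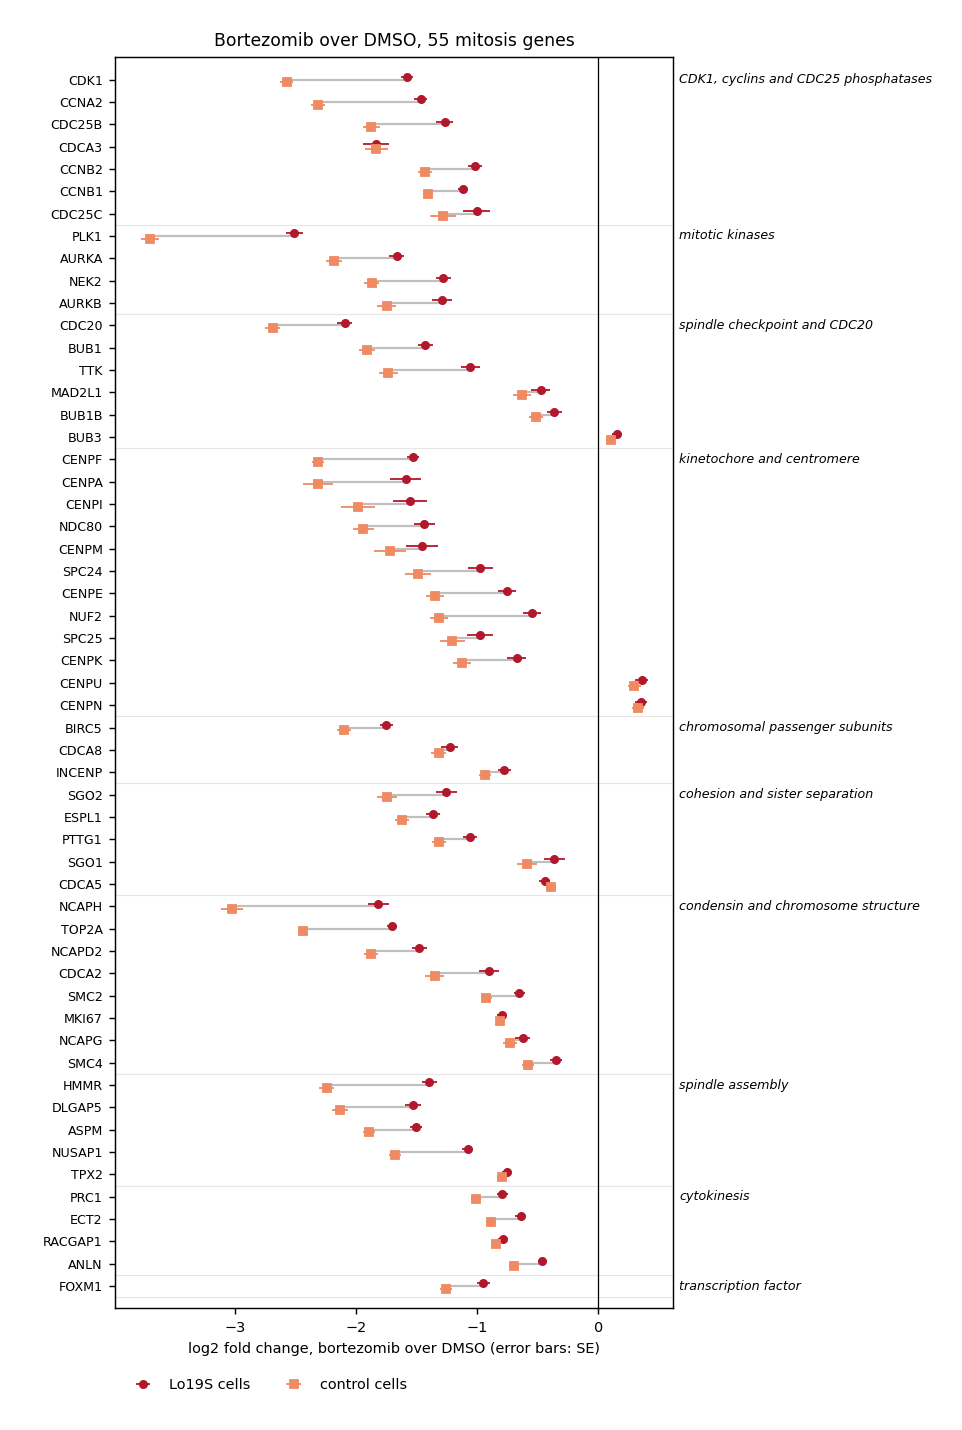
Log2 fold change with bortezomib over DMSO for each of the 55 genes, grouped by role, in Lo19S cells (dark red circles) and control cells (orange squares), with SE as error bars. PLK1, NCAPH and CDC20 lie farthest left in control cells, BUB3, CENPU and CENPN lie right of 0 in both states with TMM scaling, which library totals reverse for BUB3 in both and for the other two in control cells, and most Lo19S points lie nearer to 0 than the control points.

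Among CDK1, its cyclins and activators, all 7 genes fell in Lo19S cells with DMSO and all 7 fell with bortezomib in each state. CDK1, the kinase that drives entry into mitosis, was at 74.5, 82.1 and 79.2 CPM in Lo19S cells with bortezomib and 54.97, 54.8 and 56.2 CPM in control cells with bortezomib. With DMSO CDK1 was at 234, 234 and 239 CPM in Lo19S cells and 346, 343 and 298 CPM in control cells. Its groups did not overlap, and with bortezomib the Lo19S libraries were the higher ones, the reverse of their order with DMSO. Bortezomib changed CDK1 by -1.58 (SE 0.050, adjusted p = 8.59e-31) in Lo19S cells and by -2.57 (SE 0.052, adjusted p = 8.8e-39) in control cells, which is 3.00-fold and 5.95-fold lower. Lo19S relative to control cells was 0.51 (SE 0.060, adjusted p = 2.03e-09) under bortezomib and -0.48 (SE 0.042, adjusted p = 6.49e-13) under DMSO. CCNA2, which encodes cyclin A2 of S and G2 phase, stood at 39.5, 37.2 and 38.3 CPM in Lo19S cells with bortezomib and 31.5, 29.2 and 31.2 CPM in control cells with bortezomib. With DMSO CCNA2 was at 104, 107 and 108 CPM in Lo19S cells and 149.7, 155 and 152 CPM in control cells. It too was lower in Lo19S cells with DMSO (-0.52, SE 0.044) and higher in Lo19S cells under bortezomib (0.33, SE 0.069, adjusted p = 0.000113).

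The mitotic B-type cyclins fell less than CDK1 with bortezomib. CCNB1 changed by -1.12 (SE 0.041) in Lo19S cells and -1.41 (SE 0.040) in control cells, and CCNB2 by -1.02 (SE 0.060) and -1.43 (SE 0.059). Under bortezomib neither cyclin B gene was called between the states, with intervals of -0.19 to -0.011 for CCNB1 and -0.13 to 0.14 for CCNB2. Of the phosphatases that remove the inhibitory phosphates from CDK1, CDC25B was higher in Lo19S than in control cells under bortezomib (0.26, SE 0.087, adjusted p = 0.0133), and CDC25C was not called (-0.38 to 0.13). CDCA3, which promotes mitotic entry by way of WEE1 degradation, was at 6.45, 7.17 and 7.79 CPM in Lo19S cells with bortezomib and 10.6, 9.80 and 9.77 CPM in control cells with bortezomib. With DMSO CDCA3 was at 25.3, 25.8 and 26.5 CPM in Lo19S cells and 35.4, 33.5 and 38.7 CPM in control cells. It fell by nearly the same amount in both states (-1.83, SE 0.106, in Lo19S cells and -1.83, SE 0.096, in control cells) and was lower in Lo19S cells under bortezomib (-0.47, SE 0.134, adjusted p = 0.00344), unlike CDK1 and CCNA2. CDC25C shares exon bases with FAM53C on the opposite strand, which rose with bortezomib by 1.17 in Lo19S cells and 1.70 in control cells, and whether counting used strand is not given in the sources used here.

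PLK1, the polo-like kinase that acts in entry, spindle assembly and cytokinesis, had the largest fall with bortezomib of all 55 genes in both states. Its level was 22.3, 23.6 and 20.6 CPM in Lo19S cells with bortezomib and 14.2, 11.8 and 11.9 CPM in control cells with bortezomib. With DMSO PLK1 was at 127, 126 and 120.1 CPM in Lo19S cells and 156, 156 and 181 CPM in control cells. The states did not overlap with either agent, and the Lo19S libraries were the lower ones with DMSO and the higher ones with bortezomib. Bortezomib changed PLK1 by -2.51 (SE 0.069, adjusted p = 4.14e-33) in Lo19S cells and by -3.70 (SE 0.076, adjusted p = 1.65e-38) in control cells, or 5.70-fold and 13.0-fold lower. Under bortezomib PLK1 also had the largest rise in Lo19S over control cells, at 0.80 (SE 0.106, adjusted p = 2.84e-08) or 1.74-fold. AURKA, the Aurora kinase of centrosomes and spindle poles, changed by -1.67 (SE 0.062) in Lo19S cells and -2.18 (SE 0.062) in control cells. AURKB, the kinase of the chromosomal passenger complex, changed by -1.29 (SE 0.083) and -1.75 (SE 0.081), and NEK2, a centrosome kinase, by -1.28 (SE 0.062) and -1.87 (SE 0.062). For these 3 kinases the responses differed between the states, with differences of 0.52, 0.46 and 0.59 and adjusted p of 1.95e-05, 0.00338 and 1.43e-06, but their levels under bortezomib were not called between the states. With libraries scaled by their totals AURKA (0.26, adjusted p = 0.00539) and NEK2 (0.21, adjusted p = 0.0210) were called higher in Lo19S cells, and AURKA also without control bortezomib replicate 1 (adjusted p = 0.0240).

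**Figure D3:**
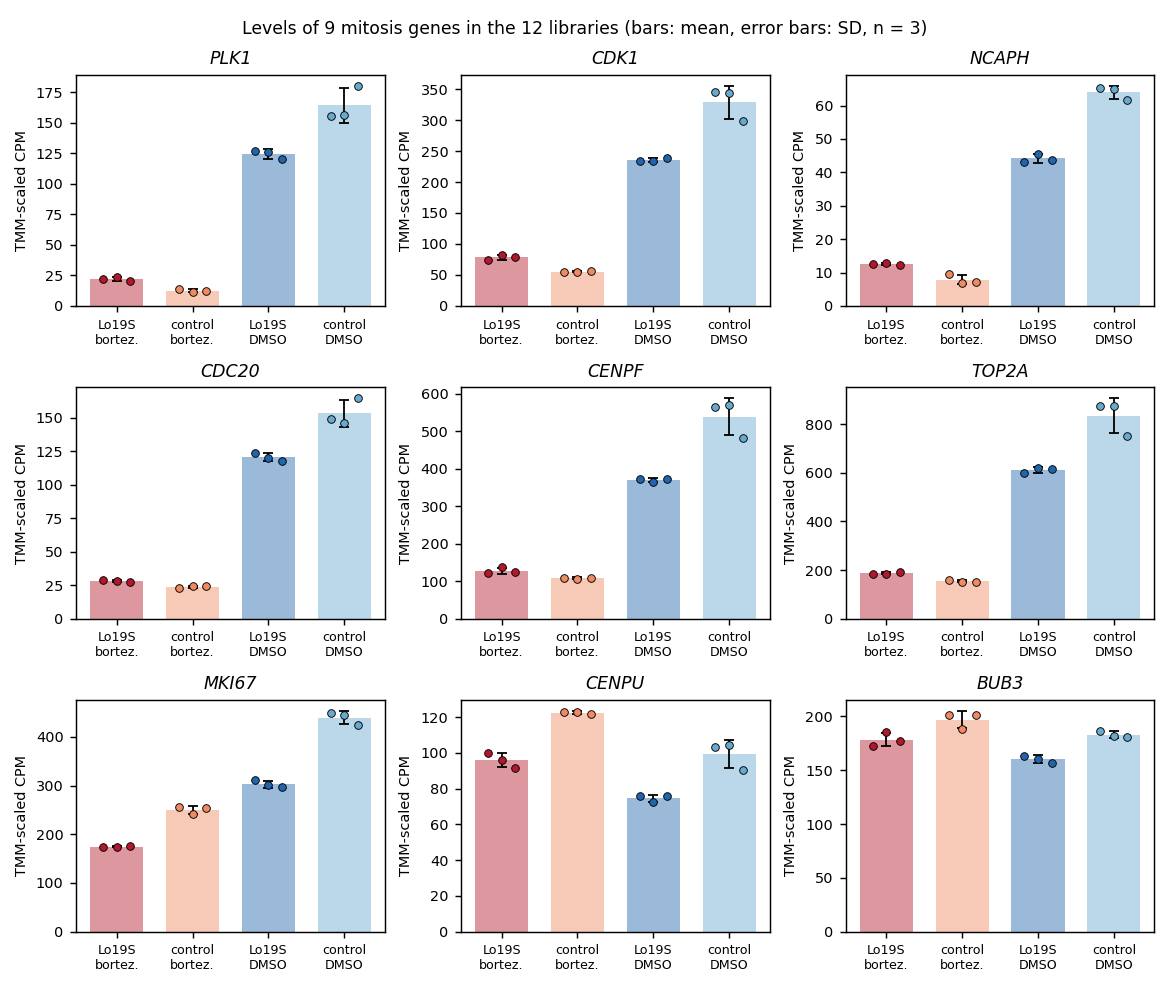
Levels of 9 mitosis genes in TMM-scaled CPM in the 12 libraries, by group (points: libraries, bars: means, error bars: SD, n = 3, axes from 0). With bortezomib PLK1, CDK1, NCAPH, CDC20, CENPF and TOP2A are low in both states and higher in Lo19S than in control cells, whereas MKI67 is lower in Lo19S cells with both agents, and CENPU and BUB3 are not lowered by bortezomib on this scale, though BUB3 is with library totals.

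The 6 checkpoint genes split by how far they fell. CDC20, the activator of the anaphase-promoting complex on which the checkpoint acts, was at 29.3, 28.2 and 27.5 CPM in Lo19S cells with bortezomib and 22.8, 24.2 and 24.2 CPM in control cells with bortezomib. With DMSO CDC20 was at 124, 119.96 and 118 CPM in Lo19S cells and 149, 146 and 164 CPM in control cells. Each bortezomib library lay far below each DMSO library, with a change of -2.09 (SE 0.061, adjusted p = 5.67e-33) in Lo19S cells and -2.69 (SE 0.062, adjusted p = 2.66e-37) in control cells. BUB1, a checkpoint kinase at the kinetochore, changed by -1.43 (SE 0.065) in Lo19S cells and -1.91 (SE 0.064) in control cells. TTK, the kinase that starts checkpoint signalling, changed by -1.06 (SE 0.079) and -1.73 (SE 0.081). By contrast, BUB1B, which encodes the checkpoint protein BUBR1, changed by -0.36 (SE 0.061) in Lo19S cells and -0.52 (SE 0.058) in control cells. MAD2L1, which encodes MAD2, changed by -0.48 (SE 0.077) and -0.63 (SE 0.072). BUBR1, MAD2 and BUB3 bind CDC20 in the inhibitory complex that the checkpoint makes.

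BUB3 was one of the 3 members that rose with bortezomib on the TMM scale. Its level was 173, 185 and 177 CPM in Lo19S cells with bortezomib and 202, 188 and 201 CPM in control cells with bortezomib. With DMSO BUB3 was at 164, 161 and 157 CPM in Lo19S cells and 186, 182 and 181 CPM in control cells. The bortezomib libraries lay just above the DMSO libraries in each state, and the change was 0.15 (SE 0.041, adjusted p = 0.000975) in Lo19S cells and 0.11 (SE 0.041, adjusted p = 0.0159) in control cells. This direction depends on scaling: with libraries scaled by their totals BUB3 changed by -0.14 in Lo19S cells and by -0.28 in control cells, where the median over all genes moved to -0.31 and -0.42. The call in control cells was also lost without control bortezomib replicate 1 (adjusted p = 0.0695) and without control bortezomib replicate 3 (adjusted p = 0.0721). Relative to control cells under bortezomib, TTK (0.27, SE 0.098, adjusted p = 0.0203) and CDC20 (0.25, SE 0.081, adjusted p = 0.0108) were higher in Lo19S cells. On the same comparison BUB1B (-0.29, SE 0.064, adjusted p = 0.000264), MAD2L1 (-0.31, SE 0.082, adjusted p = 0.00184) and BUB3 (-0.14, SE 0.042, adjusted p = 0.00419) were lower in Lo19S cells, and BUB1 was not called.

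Of the 12 kinetochore and centromere genes, 11 fell in Lo19S cells with DMSO, and 10 fell and 2 rose with bortezomib in each state. The 2, CENPN and CENPU, were not called with libraries scaled by their totals. CENPF, a large outer kinetochore protein, was at 121, 137 and 126 CPM in Lo19S cells with bortezomib and 109.9, 106 and 109 CPM in control cells with bortezomib. With DMSO CENPF was at 373, 364 and 372 CPM in Lo19S cells and 564, 569.8 and 482 CPM in control cells. The DMSO groups did not overlap, control DMSO replicate 3 being the lowest of its group, and the bortezomib groups did not overlap either. CENPF changed with bortezomib by -1.53 (SE 0.051, adjusted p = 2.91e-22) in Lo19S cells and -2.32 (SE 0.052, adjusted p = 4.69e-27) in control cells, and in Lo19S over control cells it was 0.24 (SE 0.058, adjusted p = 0.00119) under bortezomib and -0.54 (SE 0.045, adjusted p = 6.37e-11) under DMSO. CENPA had levels of 6.81, 8.05 and 7.93 CPM in Lo19S cells with bortezomib and 6.84, 7.79 and 5.95 CPM in control cells with bortezomib. With DMSO CENPA was at 20.0, 25.6 and 23.7 CPM in Lo19S cells and 35.2, 38.7 and 28.8 CPM in control cells. It fell with bortezomib by 1.59 in Lo19S cells and by 2.31 in control cells on the log2 scale, and its bortezomib libraries overlapped between the states. CENPA shares exon bases with SLC35F6, which rose with bortezomib in both states. CENPE, the kinetochore motor that moves chromosomes to the spindle equator, changed by -0.75 (SE 0.075) in Lo19S cells and -1.35 (SE 0.073) in control cells.

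The 4 subunits of the NDC80 complex, which binds microtubules at the outer kinetochore, all fell with bortezomib, with log2 fold changes of -0.55 to -1.44 in Lo19S cells and -1.21 to -1.94 in control cells. NDC80 itself changed by -1.44 (SE 0.087) in Lo19S cells and -1.94 (SE 0.087) in control cells, and its partner NUF2 by -0.55 (SE 0.073) and -1.32 (SE 0.073). In Lo19S over control cells under bortezomib NUF2 (0.26, SE 0.083, adjusted p = 0.0107) and SPC24 (0.40, SE 0.131, adjusted p = 0.0113) were higher, and NDC80 (-0.09 to 0.34) and SPC25 (-0.47 to 0.024) were not called. SPC24, the only member not called with DMSO, was at 12.1, 11.1 and 12.5 CPM in Lo19S cells with bortezomib and 10.02, 9.91 and 7.38 CPM in control cells with bortezomib. With DMSO SPC24 was at 22.2, 24.3 and 24.8 CPM in Lo19S cells and 27.7, 25.5 and 23.3 CPM in control cells. Its DMSO libraries overlapped between the states.

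Genes of the constitutive centromere network, which links CENPA chromatin to the outer kinetochore, did not move together. CENPI changed by -1.56 (SE 0.141) in Lo19S cells and -1.99 (SE 0.139) in control cells with bortezomib. CENPM changed by -1.46 (SE 0.132) and -1.72 (SE 0.131), and CENPK by -0.67 (SE 0.077) and -1.13 (SE 0.078). CENPN, which reads CENPA nucleosomes, was at 108, 100.4 and 104 CPM in Lo19S cells with bortezomib and 129.8, 126 and 120.2 CPM in control cells with bortezomib. With DMSO CENPN was at 84.9, 81.2 and 79.0 CPM in Lo19S cells and 102, 97.0 and 100.2 CPM in control cells. CENPU, which encodes a protein that recruits PLK1 to the kinetochore, was at 99.8, 95.98 and 91.8 CPM in Lo19S cells with bortezomib and 123, 123 and 121 CPM in control cells with bortezomib. With DMSO CENPU was at 75.6, 72.5 and 75.8 CPM in Lo19S cells and 103, 104 and 90.6 CPM in control cells. In each state the bortezomib libraries of both genes lay above the DMSO libraries, and with each agent the Lo19S libraries lay below the control libraries. CENPN changed with bortezomib by 0.35 (SE 0.050, adjusted p = 1.95e-08) in Lo19S cells and 0.33 (SE 0.048, adjusted p = 2.9e-08) in control cells. CENPU changed by 0.36 (SE 0.054, adjusted p = 6.88e-08) in Lo19S cells and 0.30 (SE 0.050, adjusted p = 7.42e-07) in control cells. With libraries scaled by their totals neither was called in either state, CENPN at 0.060 in Lo19S and -0.054 in control cells and CENPU at 0.068 and -0.084. Both overlap a gene on the opposite strand: CMC2 for CENPN, at 0.25 in Lo19S and -0.11 in control cells, and PRIMPOL for CENPU, at -1.14 and -1.61.

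The 3 chromosomal passenger subunits all fell with DMSO in the Lo19S state and with bortezomib in both states. BIRC5, which encodes survivin, was at 39.2, 33.2 and 39.3 CPM in Lo19S cells with bortezomib and 38.8, 38.9 and 38.6 CPM in control cells with bortezomib. With DMSO BIRC5 was at 128, 126 and 125 CPM in Lo19S cells and 162, 168 and 170.04 CPM in control cells. Its bortezomib libraries overlapped between the states, and it changed with bortezomib by -1.75 (SE 0.056, adjusted p = 3.23e-31) in Lo19S cells and -2.10 (SE 0.055, adjusted p = 4.8e-35) in control cells. CDCA8, which encodes borealin, changed by -1.23 (SE 0.067) and -1.32 (SE 0.063), and INCENP, the scaffold, by -0.78 (SE 0.054) and -0.94 (SE 0.053). With AURKB counted in, the 4 genes of the complex spanned -0.78 to -1.75 in Lo19S cells and -0.94 to -2.10 in control cells (log2 fold changes with bortezomib). Under bortezomib CDCA8 (-0.35, SE 0.077, adjusted p = 0.000238) and INCENP (-0.15, SE 0.059, adjusted p = 0.0331) were lower in Lo19S cells.

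All 5 genes of cohesion and sister separation fell in Lo19S cells with DMSO and with bortezomib in each state. ESPL1, which encodes separase, the protease that cuts cohesin, changed with bortezomib by -1.37 (SE 0.058) in Lo19S cells and -1.62 (SE 0.056) in control cells. PTTG1, which encodes its inhibitor securin, changed by -1.06 (SE 0.058) and -1.31 (SE 0.057). The shugoshins, protectors of centromeric cohesion, differed: SGO2 changed by -1.26 (SE 0.087) in Lo19S cells and -1.75 (SE 0.083) in control cells, and SGO1 by -0.36 (SE 0.087) and -0.59 (SE 0.081). SGO2 was at 14.0, 14.0 and 14.0 CPM in Lo19S cells with bortezomib and 14.9, 14.6 and 14.4 CPM in control cells with bortezomib. With DMSO SGO2 was at 31.8, 36.8 and 31.6 CPM in Lo19S cells and 48.7, 50.8 and 47.9 CPM in control cells. Its DMSO libraries lay apart between the states, and its bortezomib libraries were all close together. CDCA5, which encodes sororin, the stabiliser of cohesin on replicated DNA, was at 109, 107 and 101 CPM in Lo19S cells with bortezomib and 147, 145 and 147 CPM in control cells with bortezomib. With DMSO CDCA5 was at 147, 138 and 145 CPM in Lo19S cells and 191, 189 and 194 CPM in control cells. It fell little with bortezomib (-0.44, SE 0.044, in Lo19S cells and -0.39, SE 0.042, in control cells) and was the only gene of this group called between the states under bortezomib, lower in Lo19S cells at -0.47 (SE 0.045, adjusted p = 3.8e-12). SGO1, not called there, had an interval of -0.39 to -0.029.

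The subunits of condensin I, which work as one complex of SMC2, SMC4, NCAPD2, NCAPG and NCAPH, spread over a wide range with bortezomib, from -0.35 to -1.82 in Lo19S cells and from -0.58 to -3.02 in control cells (log2 fold changes). NCAPH, the kleisin subunit that closes the ring, was at 12.7, 12.9 and 12.3 CPM in Lo19S cells with bortezomib and 9.53, 7.02 and 7.15 CPM in control cells with bortezomib. With DMSO NCAPH was at 43.2, 45.6 and 43.7 CPM in Lo19S cells and 65.3, 65.0 and 61.8 CPM in control cells. The groups did not overlap, and the states changed order between the agents. Its change with bortezomib was -1.82 (SE 0.085, adjusted p = 1.69e-24) in Lo19S cells and -3.02 (SE 0.091, adjusted p = 1.45e-32) in control cells, and in Lo19S over control cells it was 0.67 (SE 0.125, adjusted p = 1.69e-05) under bortezomib and -0.54 (SE 0.062, adjusted p = 1.49e-09) under DMSO. SMC4, by contrast, averaged 303 ± 13.0 CPM in Lo19S cells with bortezomib and 387 ± 6.99 CPM in Lo19S cells with DMSO, and 327 ± 11.5 CPM in control cells with bortezomib and 489 ± 47.7 CPM in control cells with DMSO (SD, n = 3 each). Of the other subunits, SMC2 changed by -0.65 (SE 0.046) in Lo19S cells and -0.93 (SE 0.045) in control cells. NCAPD2 changed by -1.48 (SE 0.059) and -1.88 (SE 0.060), and NCAPG by -0.62 (SE 0.062) and -0.73 (SE 0.059).

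Between the states under bortezomib, NCAPG was lower in Lo19S cells (-0.30, SE 0.066, adjusted p = 0.000286), and SMC2 (-0.19 to 0.0018), SMC4 (-0.21 to -0.0029) and NCAPD2 (0.0072 to 0.29) were not called. TOP2A, the topoisomerase that untangles sister chromatids, was at 185, 185 and 192 CPM in Lo19S cells with bortezomib and 159, 151 and 153 CPM in control cells with bortezomib. With DMSO TOP2A was at 599, 619 and 617 CPM in Lo19S cells and 875, 876 and 753 CPM in control cells. It fell with bortezomib, by 1.70 in Lo19S cells and by 2.44 in control cells on the log2 scale, and was higher in Lo19S cells under bortezomib (0.29, SE 0.048, adjusted p = 6.75e-06). MKI67, which encodes Ki-67, the coat protein of mitotic chromosomes used as a proliferation marker, was at 174, 173 and 176 CPM in Lo19S cells with bortezomib and 257, 241 and 254 CPM in control cells with bortezomib. With DMSO MKI67 was at 311, 301 and 296 CPM in Lo19S cells and 448, 445 and 423 CPM in control cells. All its groups were apart, and Lo19S libraries were the lower ones with both agents, at -0.52 (SE 0.040, adjusted p = 2.35e-15) under bortezomib and -0.54 (SE 0.036, adjusted p = 4.19e-17) under DMSO. The response of MKI67 to bortezomib was -0.79 (SE 0.039) in Lo19S cells and -0.81 (SE 0.037) in control cells, and the interval of their difference was -0.089 to 0.12.

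**Figure D4:**
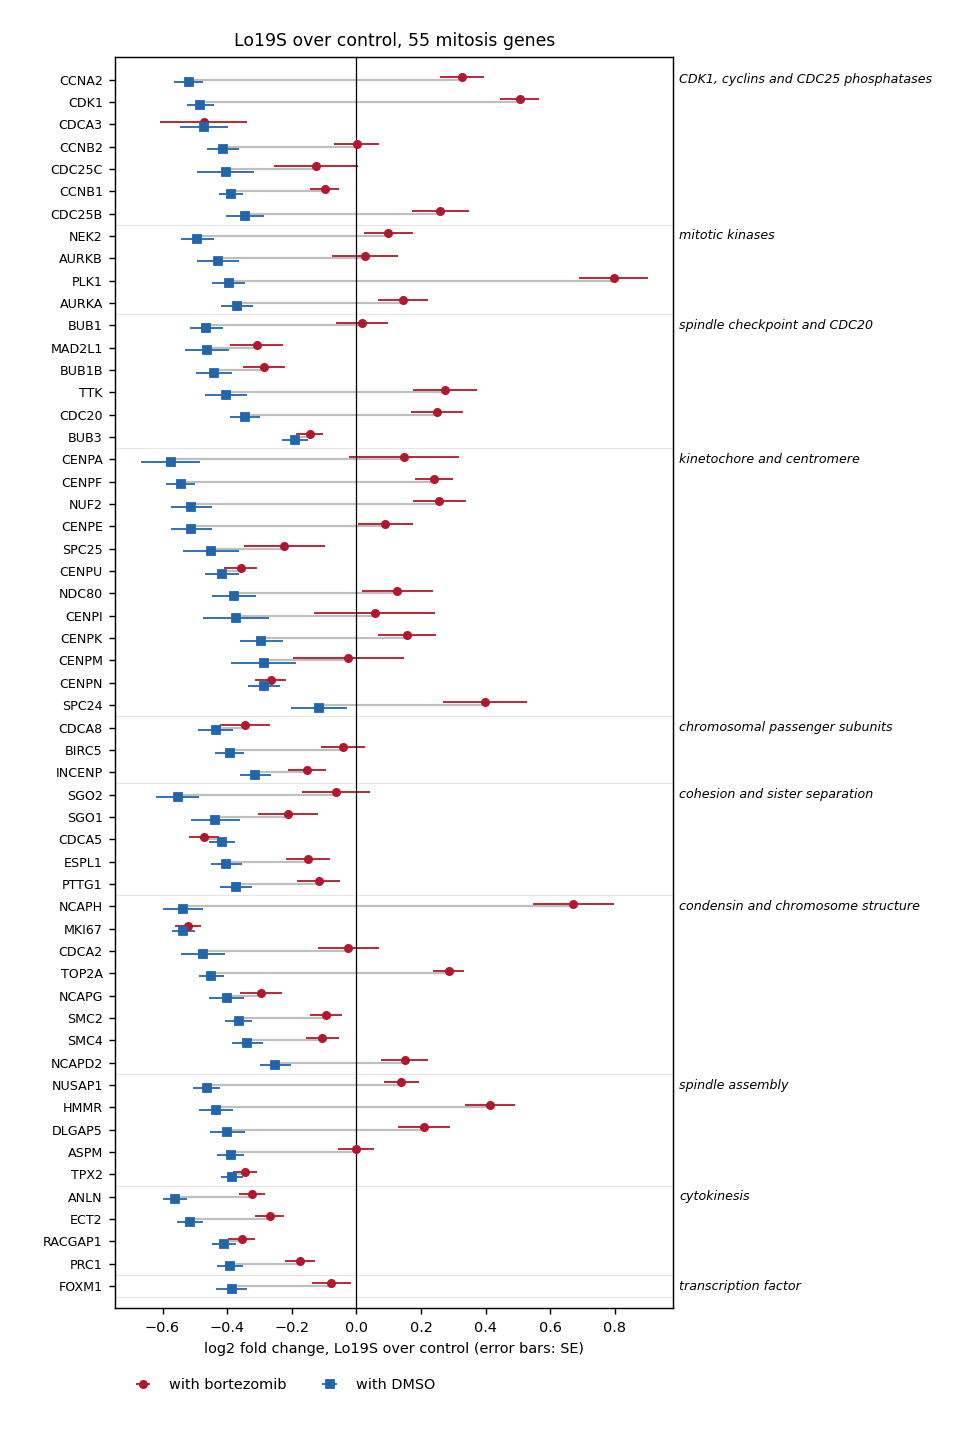
Log2 fold change of Lo19S over control cells for each of the 55 genes, grouped by role, with bortezomib (red circles) and with DMSO (blue squares), with SE as error bars. The DMSO points all lie left of 0, between -0.58 and -0.11, whereas the bortezomib points run from -0.52 for MKI67 to 0.80 for PLK1, and all 4 cytokinesis genes lie left of 0 with both agents.

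Of the 5 spindle assembly genes, all fell in Lo19S cells with DMSO and with bortezomib in each state. HMMR, a spindle pole adaptor protein, was at 52.3, 49.7 and 54.4 CPM in Lo19S cells with bortezomib and 44.1, 37.9 and 36.4 CPM in control cells with bortezomib. With DMSO HMMR was at 139, 135 and 141 CPM in Lo19S cells and 198, 195 and 166 CPM in control cells. The states did not overlap with either agent. HMMR changed with bortezomib by -1.40 (SE 0.063, adjusted p = 1.63e-21) in Lo19S cells and -2.24 (SE 0.065, adjusted p = 8.13e-28) in control cells, and was higher in Lo19S cells under bortezomib (0.41, SE 0.077, adjusted p = 3.34e-05). DLGAP5, a kinetochore-fibre protein, changed by -1.53 (SE 0.065) in Lo19S cells and -2.14 (SE 0.066) in control cells. ASPM, a spindle pole protein, changed by -1.50 (SE 0.048) and -1.89 (SE 0.048), and NUSAP1, which bundles microtubules, by -1.08 (SE 0.048) and -1.68 (SE 0.048). Under bortezomib DLGAP5 (0.21, SE 0.081, adjusted p = 0.0333) and NUSAP1 (0.14, SE 0.055, adjusted p = 0.0357) were higher in Lo19S cells, close to the threshold. TPX2, the activator of Aurora A on the spindle, changed less than its partner AURKA, by -0.76 (SE 0.037) in Lo19S cells and -0.80 (SE 0.036) in control cells, and was lower in Lo19S cells under bortezomib (-0.34, SE 0.038, adjusted p = 1.59e-10).

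The 4 cytokinesis genes fell moderately with bortezomib and kept to one side between the states. ANLN, the actin-binding scaffold of the cleavage furrow, was at 262, 274 and 269.9 CPM in Lo19S cells with bortezomib and 343, 336 and 329 CPM in control cells with bortezomib. With DMSO ANLN was at 364, 367 and 379.5 CPM in Lo19S cells and 566, 567 and 504 CPM in control cells. Its groups did not overlap, and the Lo19S libraries lay below the control libraries with both agents. ANLN changed with bortezomib by -0.46 (SE 0.039) in Lo19S cells and -0.70 (SE 0.038) in control cells. ECT2, the exchange factor that activates RhoA, changed by -0.64 (SE 0.042) and -0.89 (SE 0.041). RACGAP1, its partner from centralspindlin, changed by -0.79 (SE 0.040) and -0.84 (SE 0.039), and PRC1, the bundler of the central spindle, by -0.79 (SE 0.043) and -1.01 (SE 0.042). All 4 were lower in Lo19S than in control cells under bortezomib, ANLN at -0.32 (SE 0.040, adjusted p = 3.98e-09), RACGAP1 at -0.36 (SE 0.042, adjusted p = 1.11e-09), ECT2 at -0.27 (SE 0.044, adjusted p = 1.87e-06) and PRC1 at -0.17 (SE 0.046, adjusted p = 0.00184), of which PRC1 was not called with libraries scaled by their totals (-0.064, adjusted p = 0.273). FOXM1, the one transcription factor among the members, changed by -0.95 (SE 0.054, adjusted p = 4.3e-21) with bortezomib in Lo19S cells and -1.26 (SE 0.053, adjusted p = 1.77e-26) in control cells, and was not called between the states under bortezomib (-0.20 to 0.041).

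Related genes outside the 55 were counted in the same way, and their counts stand against 13% of all genes tested called lower and 11.7% higher in Lo19S cells with DMSO. With bortezomib the shares of all genes tested were 39.7% lower and 37.8% higher in Lo19S cells, and 42.2% lower and 39.2% higher in control cells. Of 28 other kinetochore and checkpoint genes, 20 fell and none rose in Lo19S cells with DMSO. With bortezomib 19 fell and 7 rose in Lo19S cells, and 20 fell and 5 rose in control cells. KNL1, the scaffold on which BUB1 and BUB3 assemble, changed by -1.08 (SE 0.070) in Lo19S cells and -1.85 (SE 0.073) in control cells. CENPQ, of the same network as CENPU, changed by 1.49 (SE 0.088) and 1.996 (SE 0.080) and CENPT by 1.49 (SE 0.050) and 1.97 (SE 0.048). Of 21 other spindle and cytokinesis genes 19 fell and 1 rose in Lo19S cells with DMSO, and with bortezomib 16 fell and 2 rose in Lo19S cells and 17 fell and 1 rose in control cells. Among these, PSRC1 changed by -3.08 (SE 0.137) in Lo19S and -3.79 (SE 0.145) in control cells, and ARHGEF39 by -2.93 (SE 0.116) and -3.93 (SE 0.128). HAUS8 rose, by 1.06 (SE 0.077) in Lo19S cells and 1.37 (SE 0.077) in control cells. Of 18 genes of the anaphase-promoting complex and its partners, 3 fell with DMSO in the Lo19S state, a share near that of all genes tested. With bortezomib 9 fell and 6 rose in Lo19S cells, and 9 fell and 4 rose in control cells, UBE2C, its ubiquitin-conjugating enzyme, changing by -1.84 (SE 0.060) in Lo19S cells and -2.60 (SE 0.062) in control cells. CDC26 of the same list rose, by 0.93 (SE 0.171) in Lo19S cells and 1.02 (SE 0.169) in control cells.

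Of 14 other CDK1 regulators, 8 fell in Lo19S cells with DMSO, and with bortezomib 6 fell and 6 rose in Lo19S cells and 7 fell and 5 rose in control cells. CCNF, which encodes the F-box protein cyclin F, changed by -1.82 (SE 0.072) in Lo19S cells and -2.54 (SE 0.075) in control cells, and BORA, the activator of PLK1 with Aurora A, by -1.12 (SE 0.116) and -1.90 (SE 0.123). In the other direction, PPP2R2A rose by 1.21 (SE 0.046) in Lo19S cells and 1.23 (SE 0.046) in control cells. CDC25A rose by 1.09 (SE 0.065) in control cells. Of 13 cohesin genes 8 fell and 1 rose in Lo19S cells with DMSO, and with bortezomib 3 fell and 7 rose in Lo19S cells and 6 fell and 6 rose in control cells, WAPL, which releases cohesin, rising by 0.89 (SE 0.042) and 1.02 (SE 0.042). PDS5B of the same list changed by -0.70 (SE 0.063) in Lo19S cells and -0.82 (SE 0.062) in control cells. The 3 condensin II subunits tested outside the 55 all fell with DMSO in the Lo19S state. With bortezomib 2 fell in each state, and NCAPH2, the kleisin counterpart of NCAPH in condensin II, rose in control cells at 0.26 (SE 0.065). Of 18 DREAM and MYB-MuvB factors 9 fell and 2 rose in Lo19S cells with DMSO, and with bortezomib 9 fell and 6 rose in Lo19S cells and 10 fell and 7 rose in control cells. For the anaphase-promoting complex, the CDK1 regulators, cohesin and the DREAM factors, whose genes moved both ways with bortezomib as all genes tested did, those counts are descriptions only.

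DNA replication genes, the neighbouring group of the cell cycle, were also lower in the Lo19S state with smaller medians in the bortezomib responses than the mitosis genes. Of 30, 27 fell and none rose in Lo19S cells with DMSO (median -0.33), and with bortezomib 17 fell and 6 rose in Lo19S cells (median -0.44) and 19 fell and 9 rose in control cells (median -0.38). Under bortezomib 25 of the 30 were lower and 3 higher in Lo19S than in control cells (median -0.41), where the 55 mitosis genes had a median of -0.025. Of all genes tested, 21.2% were called lower and 22% higher there. The difference of the responses was called for 5 higher and 6 lower replication genes (median -0.013), against 37 higher and none lower of the mitosis genes (median 0.39). For this difference 14.4% of all genes tested were called higher and 13.4% lower. These medians and counts describe the lists and were not tested against each other.

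Promoters are shown for some of the genes that fell most with bortezomib in control cells, picked by a rule given below that requires a motif match. Whether promoter letters bear on the changes of these genes was not tested. A regulatory sequence common in genes of this phase is the CHR, a short element bound by MuvB, often found with CCAAT boxes, which bind NF-Y. The CHR was searched as TTTGAA or TTTAAA and the NF-Y box as CCAAT, on both strands, in windows of 300 bases, 250 before to 50 after the annotated start, from RefSeq on GRCh38.p14. TTTAAA is its own reverse complement and was counted once, and matches of different motifs may overlap. The rule for printing was a CHR match before the start among the 6 genes with the largest fall with bortezomib in control cells, which gave PLK1 (chr16:23678639-23678888, plus strand), CDC20 (chr1:43358731-43358980, plus strand), CDK1 (chr10:60778228-60778477, plus strand), TOP2A (chr17:40417897-40418146, minus strand) and CENPF (chr1:214602945-214603194, plus strand). NCAPH, also among the 6, was left out because its only CHR match began at base 32 after the start. Where a gene had several windows, as CDK1 did, the window with the most matches was printed. The 250 bases before each start are given 5′ to 3′ on the gene's strand, with CHR and CCAAT letters of either strand in capitals.
PLK1: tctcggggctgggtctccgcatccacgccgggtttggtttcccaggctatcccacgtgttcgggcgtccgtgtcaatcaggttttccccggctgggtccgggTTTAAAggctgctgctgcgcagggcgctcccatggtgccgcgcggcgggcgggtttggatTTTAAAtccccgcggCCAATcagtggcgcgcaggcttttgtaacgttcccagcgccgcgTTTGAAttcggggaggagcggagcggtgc
CDC20: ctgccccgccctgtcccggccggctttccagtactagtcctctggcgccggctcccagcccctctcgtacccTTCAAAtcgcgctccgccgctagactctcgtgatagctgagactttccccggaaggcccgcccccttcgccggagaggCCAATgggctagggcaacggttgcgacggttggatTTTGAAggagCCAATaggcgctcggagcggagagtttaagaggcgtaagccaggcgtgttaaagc
CDK1: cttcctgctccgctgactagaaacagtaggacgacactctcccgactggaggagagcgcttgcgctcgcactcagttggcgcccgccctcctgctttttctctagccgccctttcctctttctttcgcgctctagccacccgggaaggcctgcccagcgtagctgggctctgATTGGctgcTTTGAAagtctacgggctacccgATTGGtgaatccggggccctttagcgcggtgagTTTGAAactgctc
TOP2A: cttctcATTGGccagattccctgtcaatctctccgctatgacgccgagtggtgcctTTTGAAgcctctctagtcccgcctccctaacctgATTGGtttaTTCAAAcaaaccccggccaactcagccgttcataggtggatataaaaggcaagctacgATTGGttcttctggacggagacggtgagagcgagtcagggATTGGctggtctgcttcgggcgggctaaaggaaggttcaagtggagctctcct
CENPF: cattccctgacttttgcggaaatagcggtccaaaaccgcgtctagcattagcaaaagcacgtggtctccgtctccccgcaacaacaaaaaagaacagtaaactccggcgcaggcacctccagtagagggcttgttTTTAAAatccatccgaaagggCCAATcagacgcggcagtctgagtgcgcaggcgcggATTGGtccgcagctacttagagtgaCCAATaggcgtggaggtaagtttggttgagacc

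Promoter windows were at hand for 46 of the 55 genes, and those of AURKA, BIRC5, BUB3, CDCA2, CENPM, FOXM1, RACGAP1, TPX2 and TTK were not used here. CHR letters were present in a window of 36 of the 46 (78.3%), against 20.8% of the 10642 tested genes with a window and 27.9% of all 27305 genes in the table. In the last 50 bases before the start they began in 23 of the 46 (50%), against 4.44% of the tested genes. CCAAT was present in 36 of the 46 (78.3%), against 43.3% of the tested genes and 39.7% of all genes in the table, and both motifs in 28 (60.9%), against 10.9% and 12.7%. The median log2 fold change with bortezomib was -1.10 in Lo19S and -1.42 in control cells for the 36 members with them, and -1.13 and -1.62 for the 10 without. For CCAAT the medians were -1.26 and -1.71 in the 36 members with it, and -0.59 and -0.83 in the 10 without. CENPN has both motifs near its start and CENPU has CCAAT alone, and neither fell with bortezomib. A match is a description of letters in the window and does not show that a factor binds there.

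**Figure D5:**
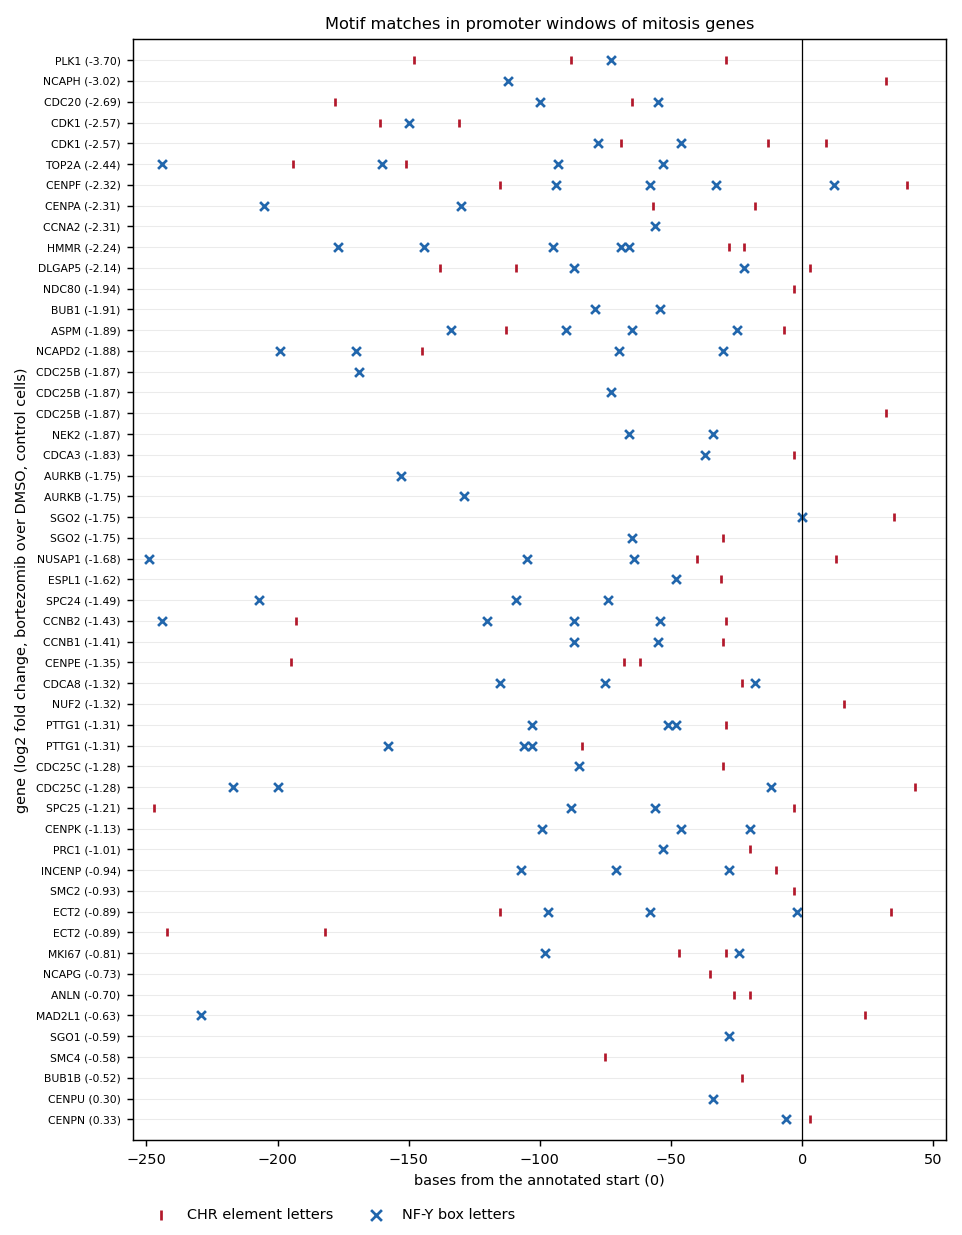
Positions of CHR letters (red bars) and NF-Y box letters (blue crosses) in the promoter windows of the members, in bases from the annotated start, for the 52 of 59 windows that hold a match. Genes run down the page by log2 fold change with bortezomib in control cells (in parentheses), and many windows hold a CHR match in the last 50 bases before the start with a CCAAT match farther out.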

How the data were processed

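RNA was measured by sequencing of polyadenylated RNA, with a stranded kit per the labels' protocols. The deposited files hold whole-number counts per gene, 1 file per library, which the authors left without normalization. The submitters' processing notes list STAR 2.5.4b, featureCounts 1.6.1 and the build GRCh37. Whether counting used strand, and how it treated multiply matching reads, is not given in the sources used here. The 22 members that share exon bases with another gene in GENCODE 29 are therefore uncertain to that extent. Of 57773 identifiers 51996 were matched to a symbol, and every row named a gene.

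Counts were filtered with filterByExpr by group, scaled with TMM factors and fitted with 1 coefficient per group over all 12 libraries in edgeR 4.0.16 (R 4.3.3), with the robust quasi-likelihood test. Adjusted p-values are those of this two-sided test after Benjamini-Hochberg adjustment over 14714 genes. SEs, derived from the log2 fold change and the F statistic, are approximate, and intervals are at 95% from these SEs, without adjustment for the number of genes tested. The fit of the bortezomib comparison in control cells was also run on simulated counts in which few genes changed, evenly up and down. In these data most genes tested were called, so that simulation cannot test the scaling. Reads carried no molecular identifiers and are not independent molecules. Alternatives were DESeq2 1.42.0, other scalings, no filter, fits to the compared groups, a replicate block and leaving out each library. All 55 members could be named, and full statistics went to the 6 largest called changes in a comparison, to members against the majority and to those not called. In the other lists up to 2 called genes per direction were named. Members, lists and rules were chosen with earlier results of these data known.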

Additional observations from a re-analysis of the deposited data

Results flagged for a closer look

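The bortezomib response of 37 mitosis genes differed between the states by the test of the difference itself. Each value is the log2 response in Lo19S cells minus that in control cells, each gene passed the adjusted p threshold of 0.05 over all 14714 genes tested, and each fell less in Lo19S cells. The same test called 27.8% of all genes tested, and the response over all genes tested was also narrower in Lo19S cells, as given above. Among CDK1, its cyclins and CDC25B the values were 0.99 for CDK1, 0.85 for CCNA2, 0.61 for CDC25B, 0.41 for CCNB2 and 0.29 for CCNB1. For the mitotic kinases they were 1.19 for PLK1, 0.59 for NEK2, 0.52 for AURKA and 0.46 for AURKB. In the checkpoint group they were 0.68 for TTK, 0.59 for CDC20 and 0.48 for BUB1. At the kinetochore and centromere they were 0.78 for CENPF, 0.77 for NUF2, 0.72 for CENPA, 0.60 for CENPE, 0.51 for SPC24, 0.50 for NDC80 and 0.45 for CENPK. Of the chromosomal passenger subunits, the value was 0.35 for BIRC5. In cohesion and sister separation they were 0.49 for SGO2, 0.26 for PTTG1 and 0.25 for ESPL1. Among condensin and chromosome structure genes they were 1.21 for NCAPH, 0.73 for TOP2A, 0.45 for CDCA2, 0.40 for NCAPD2, 0.27 for SMC2 and 0.23 for SMC4. In spindle assembly they were 0.85 for HMMR, 0.61 for DLGAP5, 0.60 for NUSAP1 and 0.39 for ASPM. For cytokinesis they were 0.25 for ECT2, 0.24 for ANLN and 0.22 for PRC1. The value was 0.31 for FOXM1.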

How the results depend on the processing

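Counts of calls in either direction, over members and over all genes, stayed within 1.5 times their value under every alternative run, but counts in 1 direction did not. Library totals in place of TMM moved the median over all genes to -0.42 (bortezomib in control cells), -0.31 (bortezomib in Lo19S cells), 0.11 (the states under bortezomib) and 0.10 (difference). The split of all genes called higher and lower was then 3717 and 8452 (5761 and 6215 with TMM), 3731 and 7918 (5561 and 5847), 4920 and 1883 (3230 and 3119), and 3331 and 1257 (2126 and 1968). Of the members 53 were lower and none higher in each bortezomib response, 18 were higher and 13 lower between the states under bortezomib, and 42 differences were called higher. The reversed values were BUB3 at -0.14 in Lo19S cells and, in control cells, BUB3 at -0.28, CENPN at -0.054 and CENPU at -0.084. DESeq2 called 53 members lower with DMSO, 52 lower and 3 higher in each bortezomib response, 11 higher and 16 lower under bortezomib, and 36 differences. Without the filter on low counts BUB3 was not called in control cells (0.035, adjusted p = 0.601) or in Lo19S cells (0.10, adjusted p = 0.0724). Leaving out single libraries gave 52 to 54 members called with DMSO, 55 throughout for bortezomib in Lo19S cells and 54 to 55 in control cells, 25 to 33 under bortezomib (9 to 14 higher and 15 to 19 lower), and 34 to 39 differences. With the replicate number as a block the members' calls stayed at 54, 55, 55, 30 and 37. No pairing by replicate number was seen: the 18 correlations between same-numbered libraries ran from -0.072 to 0.026, and 3 of 12 libraries correlated best with their own number. A weak pairing could be missed, because the deviations compared also hold counting noise. Genes near 33 counts in a library are the least precise, and a p that misses the threshold there does not show equal levels.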
